A study of Mus musculus with 6 samples.

Results

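Cells with transcripts of both Il4 and Il21 were studied among single OT-II CD4+ T cells, whose transgenic receptor recognises an ovalbumin peptide. A cell barcode was kept with at least 500 detected genes, at most 10% mitochondrial UMIs (unique molecular identifiers, 1 per captured transcript), at least 1 UMI of Cd3e, Cd3d or Cd3g, and no UMI of Epcam, Krt8 or Cd79a. Members were selected on 2 measured values, at least 1 UMI of Il4 and at least 1 UMI of Il21, and numbered 602 of 2887 kept barcodes among 4803 in all. The other kept barcodes numbered 2285. They included 217 with Il4 but no Il21 UMI (Il4+Il21-) and 706 with Il21 but no Il4 UMI (Il4-Il21+). The mutant group (2 libraries) held OT-II cells heterozygous for an M318R knock-in of the TGF-beta receptor gene Tgfbr1, the TgfbrIWT/mut genotype, and the WT group (2 libraries) held OT-II cells without it. A pair of further WT samples, labelled as hashtag libraries, had no matrix of their own here and were not analysed. In both groups the donor cells came from lymph nodes and spleen of OTII+/+RAG-/- mice, so donors lacked B cells and other T cells. They were moved into CD45.1 WT hosts, which kept their own lymphocytes and drank water with 1.5% ovalbumin for 7 days. On day 8 CD45.2+CD45.1-CD4+CD8-TCRβ+ cells were sorted from Peyer's patches, which are lymphoid tissue of the small intestine. The labels give neither donor age nor whether a library came from 1 or several hosts, so p-values measure the spread between libraries, which may be technical.

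T follicular helper (Tfh) cells enter B cell follicles through the chemokine receptor Cxcr5 under the repressor Bcl6, and carry the inhibitory receptor PD-1, encoded by Pdcd1. Their cytokines act on B cells. Il21 supports germinal centre B cells and plasma cells, and Il4 directs the antibody class switch to IgE and IgG1 in mice, so that a Tfh cell with both can serve allergic responses. Peyer's patches hold such reactions to food and microbial antigens.

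The promoters of the 2 genes are shown because the rule rests on their joint detection. Il4 (ENSMUSG00000000869) lies at chr11:53602982-53618669 and Il21 (ENSMUSG00000027718) at chr3:37222759-37232636, both on the minus strand of GRCm38. Each line gives the 250 bases before the RefSeq start, on GRCm38.p6 and the gene's strand, at chr11:53618666-53618915 and chr3:37232637-37232886. Capitals mark GGAAA, the core bound by the NFAT factors that T cell receptor signals activate, or its reverse complement.
Il4: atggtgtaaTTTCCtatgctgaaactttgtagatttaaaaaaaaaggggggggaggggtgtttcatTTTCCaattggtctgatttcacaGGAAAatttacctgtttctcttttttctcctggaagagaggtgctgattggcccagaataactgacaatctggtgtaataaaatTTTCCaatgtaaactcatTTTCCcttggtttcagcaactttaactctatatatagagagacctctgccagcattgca
Il21: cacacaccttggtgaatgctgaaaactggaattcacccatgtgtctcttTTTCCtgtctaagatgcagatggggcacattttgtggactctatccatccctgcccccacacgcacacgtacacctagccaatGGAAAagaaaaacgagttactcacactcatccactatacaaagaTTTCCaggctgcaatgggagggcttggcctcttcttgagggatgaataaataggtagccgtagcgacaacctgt
The Il4 window held 5 matches on both strands together and the Il21 window 3. Of 32851 RefSeq promoter windows of this length, 55.6% held at least 1 match, 0.390% at least 5 and 6.39% at least 3. The AP-1 letters TGANTCA, searched the same way, were in neither window and in 6.75% of all windows. A match describes letters and shows no binding.

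Members made up 28.6% of kept barcodes in mutant 1 (242 of 847, exact Clopper-Pearson 95% interval 25.6 to 31.7) and 24.7% in mutant 2 (47 of 190, 18.8 to 31.5), against 15.0% in WT 1 (185 of 1236, 13 to 17.1) and 20.8% in WT 2 (128 of 614, 17.7 to 24.3). Both mutant shares lay above both WT shares, although the intervals of mutant 2 and WT 2 overlapped. The mean was 26.7% ± 2.71 in mutant libraries and 17.9% ± 4.16 in WT libraries (SD, n = 2 each), a difference of 8.75 percentage points. An exact two-sided permutation test gave p = 0.33, the smallest that 2 libraries against 2 allow whatever their values, so this p does not bear on the difference. Intervals cover counting error only. After every barcode was thinned to 3000 UMIs the shares were 8.82% and 8.93% in the mutant libraries, against 5.08% and 8.25% in the WT libraries, and the difference was 2.21 points. Shallower barcodes were left out there, 31 and 22 in the mutant libraries, against 16 and 20 in the WT libraries.

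**Figure D1:**
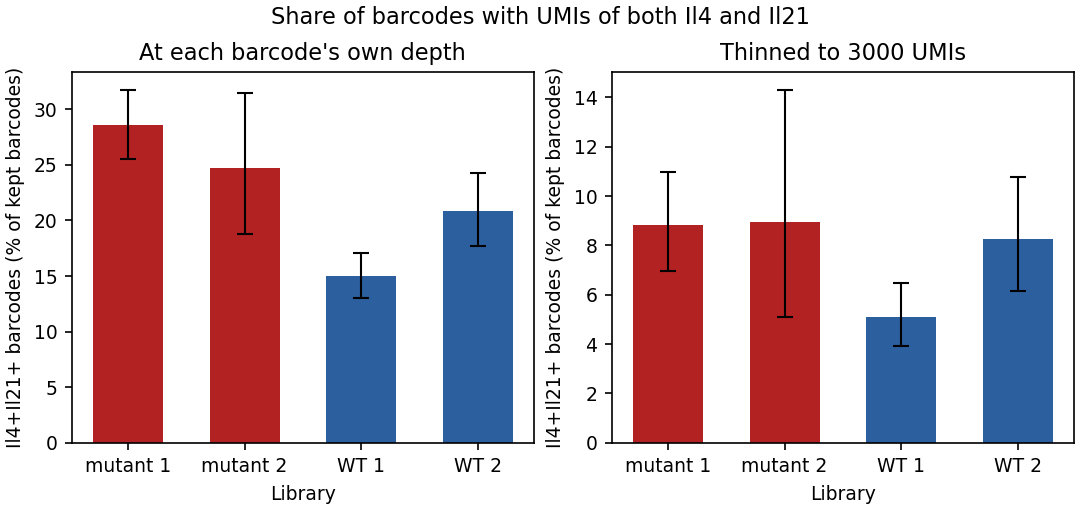
Share of kept barcodes with at least 1 UMI of Il4 and of Il21, in percent, by library, at each barcode's own depth (left) and after thinning to 3000 UMIs (right). Bars are single libraries (red mutant, blue WT) and error bars exact 95% intervals; mutant shares of 28.6% and 24.7% stand beside WT shares of 15.0% and 20.8% on the left, and the 4 shares lie between 5.08% and 8.93% on the right.

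Detection of the 2 cytokines went together. Among barcodes with Il4, 73.6% and 73.4% in the mutant libraries and 73.1% and 74% in the WT libraries also had Il21. Il4 was found in 48.9% and 53.4% of Il21+ barcodes of the mutant libraries and 42.3% and 44.4% of those of the WT libraries. In barcodes without Il21 it was found in 24.7% and 16.7% in the mutant libraries, against 8.51% and 13.8% in the WT libraries. Members held 74.7% and 81.3% of all Il4 UMIs in the mutant libraries and 75.8% and 75.3% in the WT libraries. They held 51.0% and 59.6% of Il21 UMIs in the mutant libraries and 46.3% and 53.1% in the WT libraries. After thinning to 3000 UMIs, Il21 was found in 44.7% and 42.9% of Il4+ barcodes, against 35.6% and 27.1% of Il4- barcodes, in the mutant libraries, and in 46.6% and 51.0% of Il4+ against 19.5% and 25.9% of Il4- barcodes in the WT libraries. At each barcode's own depth most Il4 transcripts lay in barcodes that also carried Il21, while Il21 was spread more widely.

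**Figure D2:**
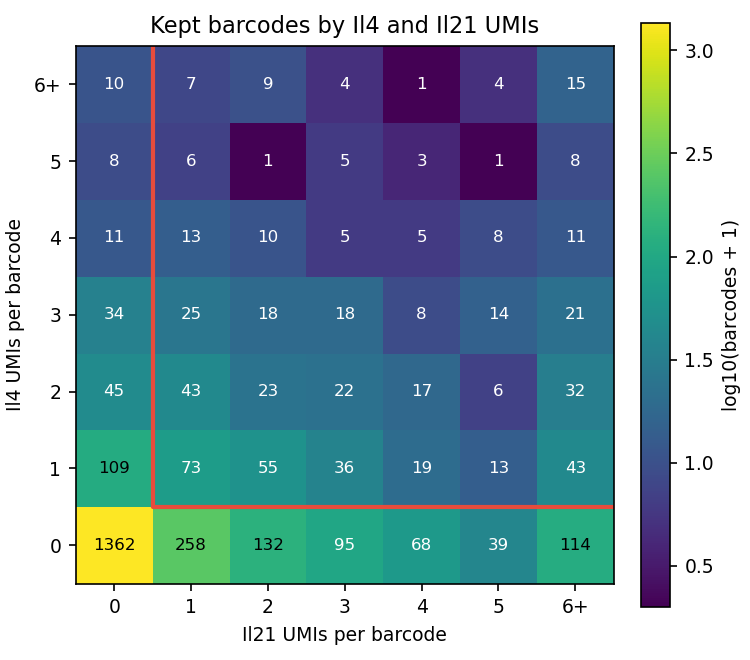
Number of kept barcodes of all 4 libraries by Il21 UMIs (x axis) and Il4 UMIs (y axis) per barcode, with counts of 6 or more pooled; colour is log10(barcodes + 1) and the red line bounds the members. The largest cell is the 1362 barcodes with neither transcript, and 73 members sit at 1 UMI of each.

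UMI numbers of the cytokines were low. The median Il4 count of a member was 2 in every library, with a maximum of 15 and 7 in the mutant libraries and 13 and 16 in the WT libraries. Median Il21 was 3 and 3 in the mutant libraries and 2 and 3 in the WT libraries. Just inside the rule, 40 and 3 members of the mutant libraries and 20 and 10 of the WT libraries had 1 UMI of each. Just outside it were 40 and 10 mutant, and 34 and 25 WT, barcodes with 1 Il4 UMI and no Il21, and 79 and 18 mutant, and 91 and 70 WT, barcodes with 1 Il21 UMI and no Il4. Depth moved with membership. The median UMI count was 9476.5 and 11314 in members of the mutant libraries and 9649 and 9566 in those of the WT libraries, against 8074 and 8423 in other mutant barcodes and 8721 and 8358.5 in other WT barcodes. With the barcodes of a library cut into 4 equal groups by depth, the member share from shallow to deep went through 9.86%, 28.9%, 36.0% and 39.6% in mutant 1 and 4.17%, 19.1%, 34.0% and 41.7% in mutant 2. The same groups gave 7.44%, 15.2%, 19.7% and 17.5% in WT 1 and 12.3%, 20.3%, 16.3% and 34.4% in WT 2. At this depth a barcode outside the rule may hold either transcript undetected.

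Co-detection was also counted in other kinds of barcodes. Of the 152 kept barcodes with a Foxp3 UMI, the mark of regulatory T cells, 8 had Il21, 2 had Il4 and 1 had both (0.658%, exact 95% interval 0.0167 to 3.61), at a median of 8618 UMIs against 8738 over all kept barcodes. Ccr9, a homing receptor for the small intestine, marked 205 barcodes, of which 1 had both (0.488%, exact 95% interval 0.0123 to 2.69, median 8862 UMIs). Eomes, a T-box factor of cytotoxic cells, marked 163 with 2 (1.23%, 0.149 to 4.36, median 10237). These 3 markers were chosen because members had few of their UMIs, so the low shares restate that and give no level of background. Of 825 kept barcodes without a UMI of Cxcr5, Pdcd1 or Bcl6, 61 had both (7.39%, exact 95% interval 5.70 to 9.40, median 7692 UMIs). In the whole set of kept barcodes, at a higher median of 8738 UMIs, 20.9% had both, and the part of depth was not tested. Of 82 barcodes that passed the filters on genes and mitochondrial UMIs but had no Cd3 UMI, none had both, which allows up to 3.66%, at a lower median of 3566 UMIs. Barcodes left out for a UMI of Epcam, Krt8 or Cd79a had both in 21 of 209 cases (10.0%), and these may include T cells.

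The Tfh label was checked with Cxcr5, Bcl6 and Pdcd1. At least 1 of the 3 was detected in 91.7% and 85.1% of members of the mutant libraries and in 89.7% and 88.3% of members of the WT libraries. Among other kept barcodes it was 67.1% and 60.8% in the mutant libraries and 66.5% and 67.7% in the WT libraries. All 3 were detected in 37.6% and 44.7% of mutant and 30.3% and 38.3% of WT members, against 19.5% and 11.9% of other mutant and 9.23% and 12.3% of other WT barcodes. Members without any of the 3 numbered 61. At least 1 of the 3 was thus found in most members of each library, but also in most other kept barcodes. All 3 were found in a minority of members. After thinning to 3000 UMIs, Cxcr5 was detected in 22.4% to 34.0% of members by library, against 14.1% to 20.2% of the others. Bcl6 was detected in 26.2% to 32.0% against 12.7% to 23.3%, and Pdcd1 in 48.6% to 59.6% against 19.8% to 32.5%. The markers were more frequent in members of each library, but do not settle the label for single cells.

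To describe the members beyond the rule, UMIs were summed per library for members and for other kept barcodes and compared with edgeR's quasi-likelihood test, with library as a block and Benjamini-Hochberg adjustment over 9038 genes (threshold 0.05). Members had higher levels of 744 genes and lower levels of 657, which is 15.5% of genes tested (8.23% higher, 7.27% lower). DESeq2 called 349 higher and 279 lower, all within edgeR's calls. Levels are UMIs per 1000000 after TMM scaling (CPM) and differences are log2 fold changes, members minus other kept barcodes, ± SE over 4 libraries. Each member group is summed over 47 to 242 barcodes, so lower levels in a sum may mean fewer cells with the transcript or less of it in each. The difference had the same sign in all 4 libraries for 33.9% of genes tested, and for 1307 of the 1401 genes called. Such agreement, or groups that do not overlap, therefore adds little for a gene already called.

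Tfh surface and helper genes were mostly higher in members. Of 21 tested, 15 rose and 2 fell, with a median log2 fold change of 0.47 against -0.00 over all genes tested. Pdcd1 stood at 364 and 347 CPM in mutant members and 339 and 438 CPM in WT members, against 188 and 149 CPM in other mutant barcodes and 131 and 158 CPM in other WT barcodes. Each member value lay above every other value, at 1.25 ± 0.08 (edgeR adjusted p = 8.03e-11). Cxcr5 stood at 127 and 141 CPM in mutant members and 110 and 113 CPM in WT members, against 98.2 and 81.0 CPM in other mutant and 54.3 and 65.4 CPM in other WT barcodes. These did not overlap either, at 0.72 ± 0.10 (edgeR adjusted p = 1.04e-05). Genes for contact help were higher: Cd40lg, the ligand that activates B cells (0.73 ± 0.09), Icos, a costimulatory receptor (0.47 ± 0.07), Sh2d1a, the adaptor of SLAM receptors (0.31 ± 0.06), Cd200 (0.54 ± 0.08), the inhibitory receptor Btla (0.70 ± 0.08), the CD30 ligand Tnfsf8 (0.65 ± 0.08) and Sostdc1, a secreted antagonist of BMP and Wnt signals (1.05 ± 0.19), with edgeR adjusted p between 1.29e-06 and 0.0015. Slamf6, a SLAM-family receptor of T cell and B cell contact, was lower at -0.66 ± 0.07 (edgeR adjusted p = 7.04e-07). Slamf6 levels were 342 and 418 CPM in mutant and 355 and 316 CPM in WT members, against 549 and 544 CPM in other mutant and 533 and 601 CPM in other WT barcodes. Sostdc1 did not pass in DESeq2 (adjusted p = 0.123), and among Cxcr5+ barcodes alone neither Sostdc1 (0.32, edgeR adjusted p = 0.457) nor Sh2d1a (0.16, edgeR adjusted p = 0.283) passed.

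Among Tfh transcription factors, 7 of 17 tested rose and 4 fell. Bcl6 stood at 160 and 125 CPM in mutant members and 127 and 168 CPM in WT members, against 104 and 71.6 CPM in other mutant barcodes and 54.6 and 78.8 CPM in other WT barcodes (0.94 ± 0.09, edgeR adjusted p = 1.2e-07). Ascl2, which turns on Cxcr5 in mice, stood at 154 and 94.7 CPM in mutant members and 88.9 and 88.0 CPM in WT members, against 74.6 and 36.2 CPM in other mutant and 13.5 and 23.9 CPM in other WT barcodes (1.70 ± 0.17, edgeR adjusted p = 1.42e-07). Neither gene overlapped between members and the others. Tox2 (1.33 ± 0.15) and Tox (0.57 ± 0.07), HMG-box factors of Tfh cells, Pou2af1, a B cell coactivator also used in Tfh cells (0.84 ± 0.11), Maf, an activator of Il21 and Il4 (0.49 ± 0.08), and Batf (0.43 ± 0.08) rose as well, with edgeR adjusted p between 8.58e-07 and 0.000441. Klf2, which restrains Tfh differentiation and keeps T cells circulating, fell to 8.06 and 14.3 CPM in mutant members and 21.5 and 9.69 CPM in WT members, against 48.4 and 116 CPM in other mutant and 177 and 125 CPM in other WT barcodes (-3.08 ± 0.14, edgeR adjusted p = 3.49e-13). Lef1, an HMG-box factor of naive T cells (-1.33 ± 0.09), and Id2, an inhibitor of E proteins (-1.0 ± 0.09), fell too, with edgeR adjusted p of 3.51e-10 and 4.08e-08. Tcf7, which encodes the related factor TCF-1, was at 510, 481, 652 and 579 CPM in members of mutant 1, mutant 2, WT 1 and WT 2, against 551, 587, 704 and 669 CPM in the others, and did not pass (-0.17 ± 0.06, edgeR adjusted p = 0.0742).

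**Figure D3:**
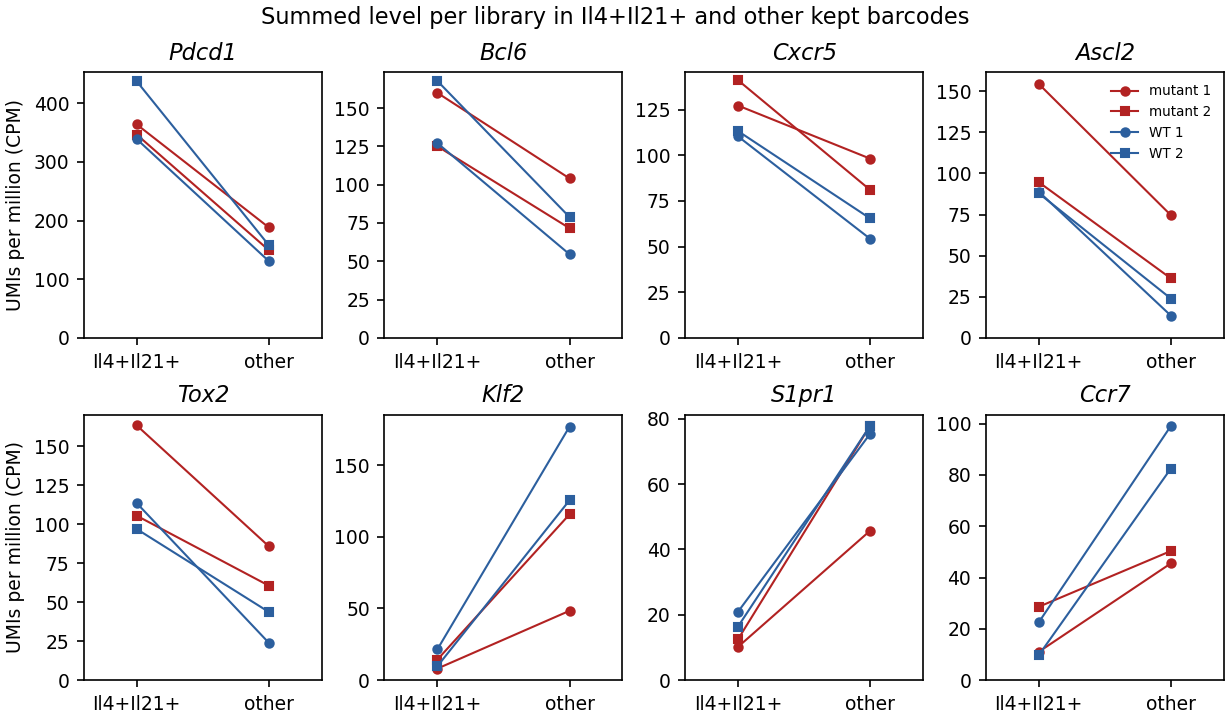
Level in UMIs per 1000000 (CPM, TMM-scaled) of 8 genes in Il4+Il21+ barcodes (left) and other kept barcodes (right), summed per library; lines join the 2 sums of a library (red mutant, blue WT, circles replicate 1, squares replicate 2). Pdcd1, Bcl6, Cxcr5, Ascl2 and Tox2 slope down from members to the others, and Klf2, S1pr1 and Ccr7 slope up, in each of the 4 libraries.

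Genes of recirculation and the naive state were lower in members, with 12 of 17 tested falling, 1 rising and a median log2 fold change of -0.76. S1pr1, the receptor for exit from lymphoid tissue, stood at 10.2 and 12.5 CPM in mutant and 20.9 and 16.4 CPM in WT members, against 45.7 and 77.9 CPM in other mutant and 75.4 and 77.9 CPM in other WT barcodes (-2.11 ± 0.14, edgeR adjusted p = 1.72e-10). Ccr7, which guides cells to the T zone, stood at 11 and 28.6 CPM in mutant and 22.5 and 9.69 CPM in WT members, against 45.5 and 50.3 CPM in other mutant and 99.1 and 82.5 CPM in other WT barcodes (-2.14 ± 0.17, edgeR adjusted p = 5.48e-09). Il7r, the receptor chain for a survival cytokine of resting T cells, fell by 2.05 on the log2 scale (SE 0.27, edgeR adjusted p = 5.8e-06). Groups did not overlap for any of the 3.

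Single markers of other T cell states had few UMIs in members. Foxp3 had 1 UMI among 6217903 member UMIs, against 363 among 20211116 in the others, a 112-fold lower level with an exact 95% interval of 19.9 to 4423 on counting error. Ccr9 had 1 UMI against 1071 (329-fold lower, 59.0 to 13026) and Fasl, the death ligand, 2 against 142 (21.8-fold lower, 5.94 to 182). Eomes had 6 UMIs against 1234 (63.3-fold lower, 29.0 to 173) and Nkg7, a cytotoxic granule gene, 10 against 1595 (49.1-fold lower, 26.6 to 103). All 10 Nkg7 UMIs of members were in WT 1, and without that library its fitted log2 fold change was -10.05 (edgeR adjusted p = 2.3e-08, with alternatives from 2.65e-111 to 8.7e-05) against -5.41 with it. The lists these genes come from were mixed. Of 6 regulatory T cell genes tested, 2 were higher (Ikzf2 and Itgb8) and 3 lower (Capg, Gpr83 and Il2ra), and the summed list was at 7.51 and 5.86 per 10000 UMIs in mutant and 6.97 and 7.76 in WT members, against 6.94 and 5.78 in other mutant and 7.39 and 7.36 in other WT barcodes. Of 7 Th1 and cytotoxic genes tested, 1 was higher (Stat4) and 4 lower, and the summed list was at 4.86 and 3.86 per 10000 UMIs in mutant and 4.58 and 4.18 in WT members, against 6.52 and 7.14 in other mutant and 7.95 and 7.78 in other WT barcodes. Ikzf2 (0.20 ± 0.06, edgeR adjusted p = 0.0387) was at 0.113 without WT 1, 0.147 without WT 2 and 0.209 without mutant 1 (0.0267 to 0.355 across the alternatives), Stat4 (0.29 ± 0.07, edgeR adjusted p = 0.00391) at 0.0513 without WT 2 (0.00181 to 0.407). Of 5 gut-homing genes tested, 4 were lower and none higher, among them Ccr9 and the integrin chains Itga4 (-1.55 ± 0.10, edgeR adjusted p = 2.85e-10) and Itgb7 (-0.74 ± 0.11, edgeR adjusted p = 3.67e-05). Other genes among those with the largest falls were Crtam, an adhesion receptor (-4.75 ± 0.35), the HMG-box factor Sox4 (-4.39 ± 0.27), the orphan nuclear receptor Nr4a2 (-4.22 ± 0.35), Ntn4 (-3.63 ± 0.35) and Tnfsf4, the ligand of the costimulatory receptor Tnfrsf4 (-3.31 ± 0.17), each with an edgeR adjusted p of 5.75e-08 or less.

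The largest rises outside the rule were in genes with low levels. They were Krt17, a keratin (2.13 ± 0.45), Gna14, a G protein alpha subunit (2.09 ± 0.27), Samd12 (1.97 ± 0.42), Padi4, which converts histone arginine to citrulline (1.91 ± 0.22), Map1b, a microtubule-associated protein (1.85 ± 0.30), Slc2a6, a sugar transporter (1.83 ± 0.35), Fam71b (1.78 ± 0.22), Dnase1l3, a secreted nuclease (1.77 ± 0.18), S100a1, a calcium-binding protein (1.76 ± 0.35), and Ascl2. Their edgeR adjusted p ran up to 0.00212. Gna14, for example, stood at 22.1 and 16.1 CPM in mutant and 22.5 and 29.8 CPM in WT members, against 8.33 and 9.44 CPM in other mutant and 2.64 and 5.13 CPM in other WT barcodes. Padi4 stood at 39.0 and 41.1 CPM in mutant and 49.2 and 36.5 CPM in WT members, against 18.9 and 11 CPM in other mutant and 6.56 and 9.76 CPM in other WT barcodes. Neither overlapped.

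Enzymes of glycolysis were higher in members, with 12 of 16 tested rising and none falling (median log2 fold change 0.62). Aldoa, the aldolase, stood at 1006 and 758 CPM in mutant and 801 and 756 CPM in WT members, against 654 and 427 CPM in other mutant and 392 and 394 CPM in other WT barcodes (0.85 ± 0.07, edgeR adjusted p = 6.67e-09). Tpi1 (0.81 ± 0.08), Pkm (0.61 ± 0.06) and Gapdh (0.57 ± 0.07) rose alike, with edgeR adjusted p of 1.39e-06 or less. Ldha, which makes lactate, differed by 0.17 ± 0.06 and did not pass (edgeR adjusted p = 0.0832). For proliferation, 1 of 17 S phase genes and 0 of 13 genes of G2 and mitosis passed in edgeR. The share over all genes tested was 15.5%, so counts on lists this short say little. The summed S phase list was at 5.52 and 7.12 per 10000 UMIs in mutant members, against 6.19 and 7.80 in other mutant barcodes. In the WT libraries it was at 7.63 and 7.16 in members, against 6.11 and 6.04 in the others.

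Inhibitory receptor and anergy genes rose in 9 of 15 cases and fell in 3, led beside Pdcd1 by Ctla4, the receptor that competes with Cd28 (0.74 ± 0.07, edgeR adjusted p = 2.85e-08). Genes induced by T cell receptor signals went down more often than up, with 8 of 19 lower and 2 higher. The orphan nuclear receptors Nr4a1 (-1.88 ± 0.18) and Nr4a3 (-2.37 ± 0.24), the factor Egr3 (-0.97 ± 0.14) and the costimulatory receptor Tnfrsf9 (-1.15 ± 0.12) fell, with edgeR adjusted p of 2.31e-05 or less. Nr4a1 stood at 24.2 and 12.5 CPM in mutant and 22.5 and 9.69 CPM in WT members, against 50.8 and 41.7 CPM in other mutant and 100.2 and 75.9 CPM in other WT barcodes. Receptors for cytokines and their STAT factors were lower in 8 of 19 cases and higher in 1. The receptors for the cytokines that define the members were among those that fell: Il4ra stood at 6.36 and 7.15 CPM in mutant and 4.19 and 4.47 CPM in WT members, against 16.1 and 20.5 CPM in other mutant and 22.0 and 22.9 CPM in other WT barcodes (-1.89 ± 0.24, edgeR adjusted p = 3.63e-06), and Il21r fell by 0.60 on the log2 scale (SE 0.09, edgeR adjusted p = 3.27e-05).

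**Figure D4:**
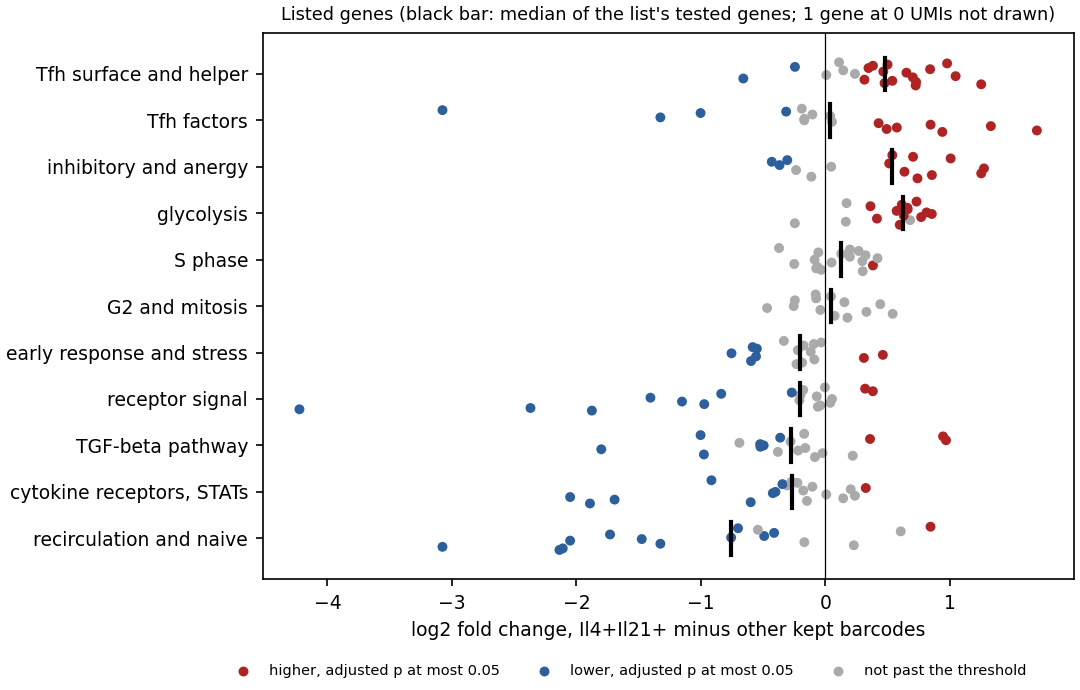
Log2 fold change, Il4+Il21+ minus other kept barcodes (x axis), of each tested gene of 11 gene lists (rows), coloured by edgeR call at an adjusted p of 0.05, with a black bar at the list's median. Medians reach 0.62 for glycolysis and 0.47 for Tfh surface and helper genes, and -0.76 for genes of recirculation and the naive state; 1 gene at 0 UMIs in members is not drawn.

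Other type 2 cytokines were not part of the pattern. Il5 and Il9 had 0 UMIs in every kept barcode, and Il13 had 0 UMIs in members and 9 in the others, all of them in WT 2. Of 18 listed type 2 genes only 4 could be tested, of which 2 were higher and 1, Il4ra, was lower (median log2 fold change 0.09). The higher genes were Nfil3 (0.69 ± 0.10, edgeR adjusted p = 4.56e-05), a leucine zipper factor, and Gata3, the Th2 lineage factor. Gata3 stood at 79.3 and 64.3 CPM in mutant and 93.1 and 82.0 CPM in WT members, against 69.5 and 51.9 CPM in other mutant and 52.0 and 74.9 CPM in other WT barcodes, so the groups overlapped (0.40 ± 0.11, edgeR adjusted p = 0.0164). It no longer passed without WT 1 (0.18, edgeR adjusted p = 0.337) or without mutant 2 (0.41, edgeR adjusted p = 0.057; 0.00351 to 0.337 across the alternatives). Among other cytokine genes Csf1, the macrophage growth factor, rose by 1.12 ± 0.18 and Tnfsf11, the RANK ligand, by 0.57 ± 0.10 (edgeR adjusted p = 8.21e-05 and 0.000277).

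Of 19 genes of the TGF-beta pathway tested, 3 were higher and 7 lower. Smad7, the inhibitory Smad that TGF-beta induces, stood at 3.82 and 3.57 CPM in mutant and 27.7 and 19.4 CPM in WT members, against 26.0 and 37.0 CPM in other mutant and 78.7 and 56.6 CPM in other WT barcodes (-1.80 ± 0.17, edgeR adjusted p = 7.2e-08). It was lower in members than in the other barcodes of the same library in 4 of 4 libraries. Over all genes tested, 33.9% kept 1 sign in all 4 libraries. Pmepa1, another induced inhibitor (-0.50 ± 0.10), and Skil, a Smad-bound repressor (-0.52 ± 0.10), fell as well, with edgeR adjusted p of 0.00122 and 0.000746, though Pmepa1 was at 0.0541 in DESeq2. Itgb8, a chain of an integrin that activates latent TGF-beta, rose by 0.97 ± 0.15 (edgeR adjusted p = 4.25e-05).

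B cell genes moved with the members. The summed B cell list stood at 4.01 and 5.42 per 10000 UMIs in mutant members and 2.90 and 3.47 in WT members, against 2.55 and 2.46 in other mutant and 1.38 and 1.83 in other WT barcodes. All 3 of the 12 listed genes that could be tested were higher: Ighm (0.89 ± 0.08, edgeR adjusted p = 9.31e-09), Pax5 (1.53 ± 0.27, edgeR adjusted p = 0.000303) and Ighd (1.55 ± 0.36, edgeR adjusted p = 0.00417). Ighm alone supplied 2118 of the members' UMIs of this list. The defining B cell marker Ms4a1 had 1 UMI in members and 2 in the others, and Cd79a is at 0 by the rule. The 11 listed epithelial genes summed to 11 and 3 UMIs in mutant members and 6 and 5 UMIs in WT members. Cpa3, Ms4a2 and Gata2, markers of mast cells and basophils, other makers of Il4, had 0 UMIs in every kept barcode. Kit, of the same list, had 40 UMIs in members and 66 in the others (0.92 ± 0.48, edgeR adjusted p = 0.219). Scrublet called 2 and 4 members of the mutant libraries and 1 and 1 of the WT libraries doublets, which is 0.826% and 8.51% of mutant and 0.541% and 0.781% of WT members. Among other kept barcodes the shares were 0.331% and 6.99% in the mutant libraries and 0.476% and 1.03% in the WT libraries. The part of other cells or doublets in the B cell gene values was not tested beyond this.

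Set against Il4+Il21- barcodes, members differed in 133 of 6737 genes tested (1.97%), 59 higher (0.876%) and 74 lower (1.1%) in edgeR. Members were higher in Pdcd1, at 366 and 354 CPM in mutant and 344 and 442 CPM in WT members, against 228 and 285 CPM in Il4+Il21- barcodes of the mutant and 168 and 175 CPM in those of the WT libraries (0.88 ± 0.11, edgeR adjusted p = 5.11e-05). Ascl2 (1.12 ± 0.19), Tox2 (0.96 ± 0.16), Ctla4 (0.66 ± 0.12) and Aldoa (0.49 ± 0.09) were higher too, with edgeR adjusted p of 0.00113 or less. Cxcr5 was at 128 and 144 CPM in mutant and 112 and 114 CPM in WT members, against 134 and 103 CPM in mutant and 60.9 and 95.2 CPM in WT Il4+Il21- barcodes. Those ranges overlapped and the difference did not pass (0.31 ± 0.14, edgeR adjusted p = 0.365). Of 13 recirculation and naive genes tested, 9 were lower and none higher, among them S1pr1 (-1.74 ± 0.24) and Ccr7 (-1.68 ± 0.24), with edgeR adjusted p of 5.11e-05 and 7.76e-05. Slamf6 was lower by the same test (-0.61 ± 0.08, edgeR adjusted p = 5.11e-05).

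The largest rises against Il4+Il21- barcodes were in Ntng1, a membrane-anchored netrin (1.67 ± 0.35), Dnase1l3 (1.59 ± 0.29), Padi4 (1.31 ± 0.25), Lpp, a focal adhesion protein (1.28 ± 0.17), and Ctsl, the protease cathepsin L (1.16 ± 0.22). The largest falls were in Tnfsf4 (-2.35 ± 0.32), S1pr1, Ccr7, Ifi214, an interferon-inducible gene (-1.45 ± 0.23), and Cmah, an enzyme of sialic acid synthesis (-1.41 ± 0.27). Tnfsf4 stood at 3.84 and 3.65 CPM in mutant and 13.3 and 5.27 CPM in WT members, against 22.1 and 48.5 CPM in mutant and 45.7 and 38.6 CPM in WT Il4+Il21- barcodes, with no overlap (edgeR adjusted p = 5.11e-05). Of the 133 calls, 67 remained in edgeR without WT 1, 63 without WT 2, 90 without mutant 1 and 120 without mutant 2. Ntng1 was at 1.51 with an adjusted p of 0.0579 without WT 2 (8.73e-05 to 0.249 across the alternatives) and Cmah at -1.19 and 0.0839 without WT 1 (0.000112 to 0.0839). Bcl6, higher at 0.68 ± 0.15 with an edgeR adjusted p of 0.00839, was at 0.50 with an adjusted p of 0.18 without WT 1 and at 0.61 and 0.119 without WT 2 (6.93e-05 to 0.239). Ctsl reached 2.23 when mutant 1 was left out (edgeR adjusted p = 0.000196, range 1.8e-07 to 0.625). DESeq2 called 31 higher and 28 lower.

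Set against Il4-Il21+ barcodes, members differed in 243 of 8586 genes tested (2.83%), 135 higher (1.57%) and 108 lower (1.26%) in edgeR. Pdcd1 stood at 368 and 353 CPM in mutant and 344 and 443 CPM in WT members, against 249 and 232 CPM in mutant and 247 and 266 CPM in WT Il4-Il21+ barcodes (0.59 ± 0.07, edgeR adjusted p = 2.77e-06). The groups did not overlap. Cxcr5 again did not pass (0.24 ± 0.10, edgeR adjusted p = 0.204). Glycolysis genes were higher in 9 of 16 cases and lower in none, with Aldoa at 0.42 ± 0.06 and Gapdh at 0.35 ± 0.06 (edgeR adjusted p = 0.000134 and 0.000512). Of 14 recirculation and naive genes 7 were lower and none higher. Klf2 led them, at 8.15 and 14.6 CPM in mutant and 21.8 and 9.81 CPM in WT members, against 20.7 and 58.1 CPM in mutant and 78.5 and 37.5 CPM in WT Il4-Il21+ barcodes (-1.77 ± 0.18, edgeR adjusted p = 2.33e-07). Each library was lower in its members, while members of WT 1 lay just above Il4-Il21+ barcodes of mutant 1. S1pr1 (-1.65 ± 0.19, edgeR adjusted p = 2.47e-06) was lower as well.

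The largest rises against Il4-Il21+ barcodes were in Gna14 (1.26 ± 0.26), Dock4, an activator of small GTPases (1.25 ± 0.24), Asb2, a ubiquitin ligase subunit (1.14 ± 0.18), Fam71b (1.11 ± 0.22) and Cybb, a subunit of the NADPH oxidase (1.09 ± 0.17). The largest falls were in Klf2, S1pr1, Esyt1, a protein of membrane contact sites (-1.57 ± 0.34), Tnfsf4 (-1.55 ± 0.29) and Rasgrp2, an activator of Rap GTPases (-1.35 ± 0.33). Asb2 stood at 46.8 and 49.1 CPM in mutant and 39.3 and 49.1 CPM in WT members, against 30.5 and 19.4 CPM in mutant and 16.5 and 11.8 CPM in WT Il4-Il21+ barcodes, with no overlap (edgeR adjusted p = 0.00025). Of the 243 calls, 78 remained in edgeR without WT 1, 116 without WT 2, 127 without mutant 1 and 226 without mutant 2. Gna14 was at 0.97 with an adjusted p of 0.149 without WT 1 and at 1.07 and 0.0649 without WT 2 (4.83e-06 to 0.149 across the alternatives), and Fam71b at 1.11 and 0.146 without mutant 1 (1.94e-05 to 0.524). Esyt1 was at -1.12 and 0.178 without WT 2 (3.42e-05 to 0.182). Rasgrp2 was at -1.27 and 0.225 without WT 1, -1.52 and 0.0535 without WT 2, and -1.15 and 0.146 without mutant 1 (0.00466 to 0.279). Of the Tfh factors, Ascl2 (0.64 ± 0.11, edgeR adjusted p = 0.000666) was at 0.51 and 0.0573 without WT 1 (1.21e-06 to 0.578) and Bcl6 (0.38 ± 0.09, edgeR adjusted p = 0.0151) at 0.36 and 0.154 without WT 1 and 0.32 and 0.167 without WT 2 (0.00593 to 0.522). Gata3 (0.49 ± 0.12, edgeR adjusted p = 0.0223) was at 0.27 with an adjusted p of 0.425 without WT 1 and at 0.57 and 0.0619 without mutant 1 (0.00379 to 0.514). DESeq2 called 50 higher and 24 lower.

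Detection of the Tfh markers among members was also read by their Il4 count. In mutant 1 Cxcr5 was detected in 48.5% of members with 1 Il4 UMI, 55.7% of those with 2 to 3 and 69.0% of those with 4 or more, and in mutant 2 in 46.7%, 57.9% and 76.9%. In WT 1 the shares were 44.1%, 49.4% and 45%, and in WT 2 49.1%, 51.9% and 57.1%. Pdcd1 was detected in 73.8%, 81.4% and 83.3% of the same groups in mutant 1 and in 80%, 78.9% and 92.3% in mutant 2. In WT 1 Pdcd1 shares were 73.5%, 77.9% and 85.0%, and in WT 2 71.7%, 85.2% and 100%. Bcl6 was detected in 57.3%, 67.0% and 71.4% of these groups in mutant 1 and in 53.3%, 57.9% and 61.5% in mutant 2. In WT 1 Bcl6 shares were 60.3%, 57.1% and 55%, and in WT 2 54.7%, 72.2% and 76.2%. From the lowest to the highest Il4 group most of these shares went up, but Bcl6 in WT 1 went down and Cxcr5 in WT 1 and Pdcd1 in mutant 2 did not keep 1 direction. Median UMIs were 10600 and 12097 in mutant and 10276 and 10849 in WT members with 4 or more Il4 UMIs, against 9356 and 9601 in mutant and 8959 and 9584 in WT members with 1. The part of depth in these shares was not tested.

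The genotype comparison within members asks which transcripts differ in these cells when they carry the mutated receptor. It called 7 genes higher and 4 lower in mutant members of 8629 tested (0.127%, with 0.0811% higher and 0.0464% lower; 578 genes had an unadjusted p under 0.05), in edgeR without a block. DESeq2 called 1 higher and 1 lower. Tgfbr1 itself (chr4:47353222-47414931, plus strand) was at 25.6 and 23.4 CPM in mutant members and 34.3 and 18.8 CPM in WT members, which overlapped. A knocked-in base change leaves 3′ counts as they are, so this does not check the labels. Trbv12 segments, which the OT-II receptor uses, made up 96.8% and 92.3% of V beta UMIs in mutant members and 96.3% and 93.5% in WT members, from 13 to 63 UMIs. Xist stood at 318 and 520 UMIs per 1000000 in mutant and 488 and 484 in WT members, and Y-linked genes at 186 and 170 in mutant and 160 and 144 in WT members, and the part of donor sex was not tested. Antibody tags were counted in the WT libraries alone, so that handling and genotype cannot be told apart.

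Targets of TGF-beta and an early response gene were lower in mutant members. Smad7 was at 3.85 and 3.60 CPM in mutant members, against 28.0 and 19.5 CPM in WT members (-2.65 ± 0.43, edgeR adjusted p = 0.00843). Mutant members held 2433982 and 551635 UMIs in all, so their Smad7 levels rest on few UMIs. Pmepa1 was at 31.2 and 30.6 CPM in mutant and 71.8 and 65.3 CPM in WT members (-1.15 ± 0.21, edgeR adjusted p = 0.0268). Fos, a subunit of AP-1, was at 67.5 and 45 CPM in mutant and 232 and 194 CPM in WT members (-1.81 ± 0.19, edgeR adjusted p = 2.16e-05). For Smad7, Pmepa1 and Fos both mutant libraries lay below both WT libraries, and the share of all genes separated in this way is not given. Fos alone passed among 16 early response and stress genes tested within members. Of the 16, 15 had a negative log2 fold change and 1 a positive one (median -0.37). In the other kept barcodes 16 of 16 were negative (median -0.40), and Fos and Hspa1a passed. Handling and genotype cannot be told apart for these genes either. Rasl11a, a small GTPase, was at 22.6 and 19.8 CPM in mutant and 49.6 and 54.0 CPM in WT members (-1.23 ± 0.23, edgeR adjusted p = 0.0304). Skil, at 35 and 37.8 CPM in mutant and 59.1 and 64.5 CPM in WT members, did not pass (-0.78 ± 0.21, edgeR adjusted p = 0.193), except without mutant 2 (0.0441; 0.0441 to 1 across the alternatives). Of 19 TGF-beta pathway genes tested within members, Smad7 and Pmepa1 were the 2 that passed. Without WT 1 the edgeR adjusted p was 0.321 for Smad7 (1.49e-06 to 0.462 across the alternatives) and 0.179 for Pmepa1, which was also at 0.0536 without mutant 1 (0.000258 to 1). For Rasl11a it was 0.0565 without WT 1, 0.0513 without WT 2 and 0.0551 without mutant 1 (0.000759 to 1). Fos passed without each library in turn, and did not among members with at least 2 UMIs of each cytokine (edgeR adjusted p = 0.0967; 5.8e-18 to 0.0967).

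Histone transcripts led the genes that were higher in mutant members. Hist1h2ap was at 70.1 and 151 CPM in mutant and 19.0 and 20.3 CPM in WT members (2.31 ± 0.30, edgeR adjusted p = 0.000544), and passed without each library in turn. Hist1h2ae was at 37.2 and 68.4 CPM in mutant and 12.7 and 12.8 CPM in WT members (1.86 ± 0.31, edgeR adjusted p = 0.00843), and did not pass among members with at least 2 UMIs of each cytokine (0.0889; 2.62e-07 to 0.0889 across the alternatives). These H2A genes have near-identical copies, so the split of reads between them is uncertain, and none of 17 S phase genes passed in edgeR. Of these 17, 16 had a negative and 1 a positive log2 fold change (median -0.24). In the other kept barcodes 13 of 18 S phase genes were positive (median 0.14) and 1, Rrm2, passed. Within members none of 11 G2 and mitosis genes passed either, although all 11 had a positive log2 fold change (median 0.76, against -0.00 over all genes tested). In the other kept barcodes 15 of 15 were positive (median 1.30) and 6 passed, among them Mki67 and Top2a. Arap2, a regulator of small GTPases, was at 222 and 162 CPM in mutant and 78.6 and 106 CPM in WT members (1.12 ± 0.18, edgeR adjusted p = 0.00843). Stc2, a secreted glycoprotein, was at 29.9 and 16.2 CPM in mutant and 3.69 and 7.51 CPM in WT members (2.27 ± 0.42, edgeR adjusted p = 0.0268). Cacna1d, a calcium channel subunit (1.47 ± 0.28, edgeR adjusted p = 0.0268), Fam71b (1.50 ± 0.29, edgeR adjusted p = 0.035) and Fam117b (1.04 ± 0.21, edgeR adjusted p = 0.0451) completed the list. In the other kept barcodes, where 141 of 10198 genes passed by genotype (1.38%), Hist1h2ap (2.07 ± 0.20), Hist1h2ae (1.64 ± 0.25), Arap2 (1.02 ± 0.20), Stc2 (2.5 ± 0.50) and Fam71b (2.38 ± 0.35) were higher in mutant libraries as well, with edgeR adjusted p of 0.0169 or less. For Stc2 the libraries overlapped there, at 14.9 and 2.35 CPM in mutant and 1.68 and 2.41 CPM in WT libraries. Cacna1d (1.41 ± 0.37, edgeR adjusted p = 0.0714) and Fam117b (0.50 ± 0.18, edgeR adjusted p = 0.203) did not pass there. Within members, without WT 1, the edgeR adjusted p was 0.252 for Arap2 (8.08e-13 to 0.269 across the alternatives), 0.185 for Stc2 (5.96e-07 to 1), 0.33 for Cacna1d (0.000291 to 1), 0.339 for Fam71b (4.44e-07 to 1) and 0.831 for Fam117b (0.000132 to 1). Without mutant 1 it was 0.387 for Stc2, 0.498 for Fam71b (log2 fold change 0.88) and 0.0932 for Fam117b.

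Genes of Tfh identity gave no calls by genotype within members. None of 17 Tfh factors, 20 Tfh surface and helper genes or 3 type 2 genes tested passed in edgeR, at a share of 0.127% over all genes, so a count of 0 says little about these lists. Bcl6 was at 161 and 126 CPM in mutant and 128 and 169 CPM in WT members (0.01 ± 0.17, edgeR adjusted p = 0.998), and Cxcr5 at 128 and 142 CPM in mutant and 111 and 114 CPM in WT members (0.24 ± 0.16, edgeR adjusted p = 0.823). Gata3 was at 79.9 and 64.8 CPM in mutant and 93.9 and 82.6 CPM in WT members (-0.24 ± 0.18, edgeR adjusted p = 0.866). Ascl2 was at 156 and 95.4 CPM in mutant and 89.7 and 88.6 CPM in WT members (0.59 ± 0.19, edgeR adjusted p = 0.405). Its difference came to 0.81 without mutant 2, where it passed (edgeR adjusted p = 0.000357), and to 0.10 without mutant 1 (0.917; 0.000357 to 1 across the alternatives). With 2 libraries a genotype, these values do not show that the genotypes are alike.

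**Figure D5:**
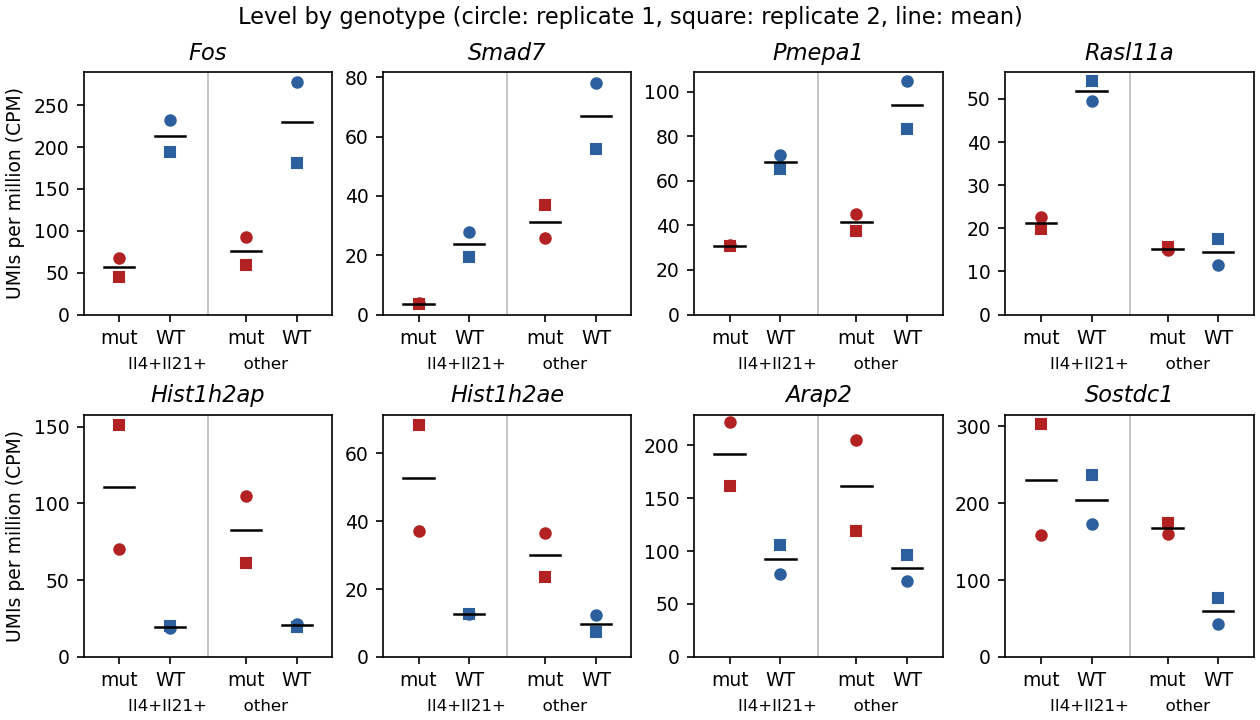
Level in UMIs per 1000000 (CPM, TMM-scaled) of 8 genes by genotype within Il4+Il21+ barcodes (left of each panel) and other kept barcodes (right); circles are replicate 1, squares replicate 2, lines means of 2 libraries. Fos, Smad7 and Pmepa1 are lower in mutant libraries in both classes, Rasl11a differs in members, and Sostdc1 differs in the other barcodes.

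Whether the genotype effect differs between members and other kept barcodes was tested as an interaction, which called 34 genes higher and 12 lower of 9502 tested (0.484%, with 0.358% higher and 0.126% lower) in edgeR. DESeq2 called 0 higher, with 81 higher at an unadjusted p under 0.05, and 1 lower. The effect on Smad7 was -2.65 in members and -1.22 ± 0.20 in the others, and that on Fos -1.81 and -1.53 ± 0.21, and neither difference passed (-1.37 ± 0.42 and -0.34 ± 0.17, edgeR adjusted p = 0.278 and 0.826). Rasl11a, at -1.23 in members and 0.12 ± 0.26 in the others, differed by -1.34 ± 0.31 without passing (edgeR adjusted p = 0.072). Passing without WT 2 at 0.00805, it ranged from 0.00558 to 1 across the alternatives.

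For several genes that were higher in members, the genotype effect was lower in members than in the other barcodes. The other barcodes differed in make-up by genotype. Foxp3 was detected in 2.15% and 0.699% of them in mutant libraries, against 10.6% and 5.35% in WT libraries. For Ccr7 the shares were 18.7% and 25.9%, against 39.0% and 34.2%. Neither Il4 nor Il21 was found in 265 of 605 and 85 of 143, against 731 of 1051 and 281 of 486. The part of this mix in the genotype effects was not tested. Sostdc1 was at 158 and 299 CPM in mutant and 171 and 235 CPM in WT members. In the other barcodes it was at 162 and 175 CPM in mutant libraries, against 43.5 and 77.1 CPM in WT libraries. Its genotype effect of 1.52 ± 0.20 there (edgeR adjusted p = 0.00123) and of 0.08 ± 0.22 in members differed by -1.54 ± 0.20 (edgeR adjusted p = 0.00398), and without mutant 1 by -1.03 (edgeR adjusted p = 0.0798; 1.47e-19 to 0.0798 across the alternatives). The differences were -0.97 ± 0.16 for Nav2, a cytoskeletal protein, -0.96 ± 0.16 for Dhrs3, a retinal reductase, -1.12 ± 0.20 for Cebpa, a leucine zipper factor, -0.57 ± 0.11 for Art2b, an ADP-ribosyltransferase, and -1.22 ± 0.24 for Ascl2, with edgeR adjusted p between 0.0172 and 0.0295. Cebpa, for example, was at 164 and 156 CPM in mutant and 140 and 150 CPM in WT members, against 85.1 and 67.4 CPM in other mutant and 26.3 and 42.9 CPM in other WT barcodes. Without mutant 1 all of these lost the call in edgeR, at -0.72 and 0.456 for Nav2 (7.03e-06 to 1 across the alternatives), -0.59 and 0.615 for Dhrs3 (2.95e-06 to 1), -0.92 and 0.453 for Cebpa (3.81e-08 to 1), -0.37 and 0.491 for Art2b (2.95e-06 to 1) and -0.96 and 0.622 for Ascl2 (3.54e-07 to 1). Without WT 1 the adjusted p was 0.132 for Cebpa and 0.422 for Ascl2, whose difference was then -0.76.

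Ribosomal protein genes made up 33 of the 34 genes with a higher effect in members, and the other was Ms4a4b (0.48 ± 0.10, edgeR adjusted p = 0.0295), which lost the call without WT 1 (0.0782) and without mutant 1 (0.34, 0.588; 0.000143 to 1 across the alternatives). Of 80 ribosomal protein genes tested none passed by genotype within members or within the others. Rplp0 was at 3920 and 3398 CPM in mutant and 3627 and 3304 CPM in WT members, against 3642 and 3231 CPM in other mutant and 4444 and 4147 CPM in other WT barcodes. Its difference was 0.40 ± 0.06 (edgeR adjusted p = 0.0112), and those of Rpl17, Rpl13, Rpl32 and Rps26 lay between 0.37 and 0.42 (edgeR adjusted p = 0.0112 to 0.0172). All ribosomal protein genes together took 2304 and 2273 of 10000 UMIs in mutant and 2368 and 2157 in WT members, against 2346 and 2337 in other mutant and 2758 and 2547 in other WT barcodes. The WT barcodes outside the members thus stood above the remaining sums. The part of the mix of cells among the other barcodes was not tested here either. Without mutant 1 only 2 ribosomal protein genes passed, without mutant 2 7, without WT 1 10 and without WT 2 18. Single genes lost the call in edgeR without mutant 1 (Rplp0 at 0.0798, Rpl13 at 0.0569, Rpl32 at 0.0743), without WT 1 (Rpl32 at 0.051) and without mutant 2 (Rps26 at 0.0519); across the alternatives each ran up to an adjusted p of 1, in DESeq2.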

How the data were processed

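Single cells were profiled with 10x 3′ chemistry in 4 libraries, 2 mutant and 2 WT. The deposited matrices hold UMI counts per gene and barcode for 32285 genes, whole numbers that were not normalized. Cell Ranger 6.0.0, Seurat 4 and the mm10 build are named in the submitters' processing notes. Introns, strand settings and any filtering of barcodes before deposit are not given in the sources used here.

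Barcodes were filtered as described above, which left 7451355 and 1786852 UMIs in the mutant libraries, against 11657859 and 5532953 UMIs in the WT libraries. Mutant 2 has the fewest kept barcodes and UMIs and 47 members, so its sums carry the largest counting error, although its barcodes are not shallow. Scrublet (scanpy 1.11.5) marked doublets, which were kept and left out in an alternative. Between libraries, 4 kept barcode sequences and 1 member barcode sequence were shared.

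Counts were summed per library and class and tested with edgeR 4.0.16 (R 4.3.3): filterByExpr, TMM, quasi-likelihood F test and Benjamini-Hochberg adjustment at 0.05 over all genes tested. Library was a block where classes of the same libraries were compared, since both sums come from 1 library; the genotype comparison had no block. Genes of the rule and mitochondrial genes were left out of calls. SE is the log2 fold change over the square root of F. Alternatives were DESeq2 1.42.0, RLE size factors, no filter on low counts, stricter or depth-matched barcodes, Cxcr5+ barcodes, no doublets, the block added or dropped, and each library left out. The procedure was tested on simulated counts. Named genes came from the gene lists used, such as the Tfh, type 2, TGF-beta, glycolysis and B cell lists, or were taken by rank. In comparisons of classes the rank was by size of change, among called genes that moved alike in each library. For genotype and its interaction it was by lowest adjusted p among called genes. Some genes that these rules name are not reported here. The members and gene lists were chosen with earlier results of these data known. Python 3.11.15, numpy 2.4.6, scipy 1.17.1, pandas 2.3.3 and matplotlib 3.10.9 were used.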

Additional observations from a re-analysis of the deposited data

Results flagged for a closer look

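The genotype effect differed between Il4+Il21+ barcodes and other kept barcodes for 46 genes in edgeR. The 5 positive and 5 negative differences of lowest adjusted p are given here. The log2 difference was 0.40 for Rplp0, 0.42 for Rpl17, 0.37 for Rpl13, 0.38 for Rpl32 and 0.42 for Rps26. It was -1.54 for Sostdc1, -0.97 for Nav2, -0.96 for Dhrs3, -1.12 for Cebpa and -0.57 for Art2b.

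Antibody tags, which no comparison used, were counted in the WT libraries. Members held 5442 tag UMIs in WT 1 and 3304 in WT 2.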

How the results depend on the processing

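Counts of calls in edgeR depended on the setting. Against other kept barcodes, DESeq2 called 349 higher and 279 lower, Cxcr5+ barcodes alone gave 219 and 206, no replicate block gave 219 and 233, and leaving out 1 library gave 442 to 619 and 392 to 571. Against Il4+Il21- barcodes the counts were 31 and 28 in DESeq2, 34 and 46 with at least 2 UMIs of each cytokine, 10 and 23 without the replicate block, 95 higher with no filter on low counts, and 30 to 74 and 33 to 90 with 1 library left out. Against Il4-Il21+ barcodes they were 50 and 24 in DESeq2, 3 and 9 without the replicate block, and 37 to 166 and 43 to 140 with 1 library left out. For genotype within members they were 1 and 1 in DESeq2, 1 and 0 with at least 2 UMIs of each (170 lower at an unadjusted p under 0.05), 39 and 24 with no filter, and 4 to 68 and 3 to 38 with 1 library left out. For the difference in genotype effect they were 0 and 1 in DESeq2, 5 higher with at least 2 UMIs of each, 80 and 42 with no filter, 20 lower with depth-matched others, 19 lower without doublets, and 3 to 31 and 0 to 44 with 1 library left out. The cause was not tested. Genotypes share only replicate numbers, with a correlation of -0.0715 between same-numbered deviations, and a replicate block gave 9 and 4 calls. The difference in member share was 5.81 to 11.7 points with 1 library left out. Bcl6 by genotype turned to -0.022 in DESeq2, and leaving out 1 library gave -0.22 (without mutant 1) to 0.20 (without WT 2), with -0.20 without WT 1. With 1 library of a genotype left, that library is assumed to vary like the others.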

Other observations

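Il17a and Il10, cytokines of other T helper lineages, had few UMIs in the members. Il17a had 0 UMIs in members and 45 in other kept barcodes, with all 45 in mutant 1, so no fold is drawn from it. Il10 had 2 UMIs in members and 176 in the others, 27.1-fold lower with an exact 95% interval of 7.38 to 225 on counting error. Il2 had 11 UMIs in members and 25 in the others.

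In WT 1 the member share was 18.1% of barcodes with tag 301, 14.6% with tag 302, 19.4% with tag 303 and 9.37% with no tag call. In WT 2 it was 33.3%, 15.4%, 23.1% and 13.3% in the same order. What each tag marks was not analysed here.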
